A study of Mus musculus with 6 samples.

Results

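The presynaptic release machinery is the set of proteins that docks, primes, fuses and retrieves synaptic vesicles at nerve terminals. A list of 43 of its genes was followed in the neocortex of mouse embryos, with the synaptotagmins left out. Of these genes, 42 were measured among the 19938 genes of the array that had a probe set of their own. The exception was Vamp2, the synaptobrevin gene of most brain vesicles, whose only probe set is also annotated to Ubr3. Where a gene had several probe sets of its own, the one with the highest mean over the 6 arrays was read.

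Expression was measured on 6 Affymetrix Mouse Gene ST arrays, 1 for each embryo, at embryonic day 14.5. The 3 mutants were homozygous for a deleted floxed allele of Bcl11a (Bcl11aΔflox/Δflox), and the 3 controls were Bcl11a+/+. Bcl11a encodes a zinc finger protein that regulates transcription in projection neurons of the cortex, and the comparison asked which genes differ when it is lost. The sources used here do not give the Cre line or the cells that lost the gene. Values come from RMA and were taken as log2 expression. RMA is a method that corrects background and makes the arrays' distributions alike. On a log2 scale 1 unit is a 2-fold step.

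At a synapse, a vesicle fuses when a SNARE protein of the vesicle zippers with SNARE proteins of the plasma membrane. Complexins and Unc13 proteins regulate that step, and scaffolds of the active zone hold vesicles and calcium channels at the release site. In the embryonic neocortex most projection neurons are still migrating and few synapses have formed, but young neurons already transcribe many of these genes. Several of the proteins also serve membrane addition in growing axons.

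Bcl11a read 11.41, 11.49 and 11.34 in mutants, against 12.20, 12.30 and 12.26 in controls, which was 1.79-fold lower (limma adjusted p = 0.00201). The sources used here do not give the deleted exon, so probes outside it could not be told from those within. Tbr1, a defining transcription factor gene of early cortical neurons, read 12.23, 12.26 and 12.24 in mutants, against 12.29, 12.23 and 12.22 in controls. By Xist and Y-linked genes, 1 mutant and 2 controls were female, and 2 mutants and 1 control were male. Correlations between arrays were 0.993 to 0.997. Mutant replicate 1 stood apart by the mean of a list of pericyte and meningeal markers, though not by every gene of it, as described further on. By the mean of 11 endothelial markers it was also the highest array, at 9.23. The other mutants read 8.89 and 8.98, and the controls 8.82, 8.93 and 9.04.

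None of the 42 release machinery genes passed the threshold, a limma adjusted p under 0.05 over all genes tested, where 0.286% of all genes did, 0.246% higher in mutants and 0.0401% lower. With array weights, an alternative that gives noisier arrays less say, 1 member passed, Slc17a6. In that setting 217 of the 19938 genes passed, against 57 without the weights. At an unadjusted limma p under 0.05, 5 members were counted, 3 higher in mutants (Slc17a6, Nsf and Nrxn2) and 2 lower (Snap25 and Doc2b). The background was 6.05% of all genes, with 4.53% higher and 1.52% lower. For 6 members the values of mutants and controls did not overlap, 4 higher in mutants and 2 lower, beside 10.5% of all genes. For all genes, 7.69% lay wholly higher in mutants and 2.85% wholly lower.

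The sizes were small. Every one of the 42 members had a 95% limma interval of its difference that lay within 1.5-fold in either direction, as 97.9% of all genes did. Differences of mutant minus control spanned -0.20 for Snap25 to 0.37 for Slc17a6. Of the members, 27, or 64.3%, were within 0.1 of no difference, a smaller share than the 77.8% of all genes. Beyond 0.2 lay 2 members, or 4.76%, beside 5.98% of all genes. The median size without sign was 0.07 for the members and 0.05 for all genes. Members were brighter, with a median level of 9.69 beside 7.92 for all genes. The median difference was 0.03 over the members and 0.02 over all genes. A positive difference was found for 27 members, or 64.3%, beside 60.3% of all genes. After a second normalization of the named genes this count was 19 by quantiles and 18 by array medians, with list medians of -0.0006 and -0.0064. The medians over all genes moved below 0 as well, to -0.0053 and -0.0197. The median SD between replicates of a group was 0.10 for the members and 0.09 for all genes.

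**Figure D1:**
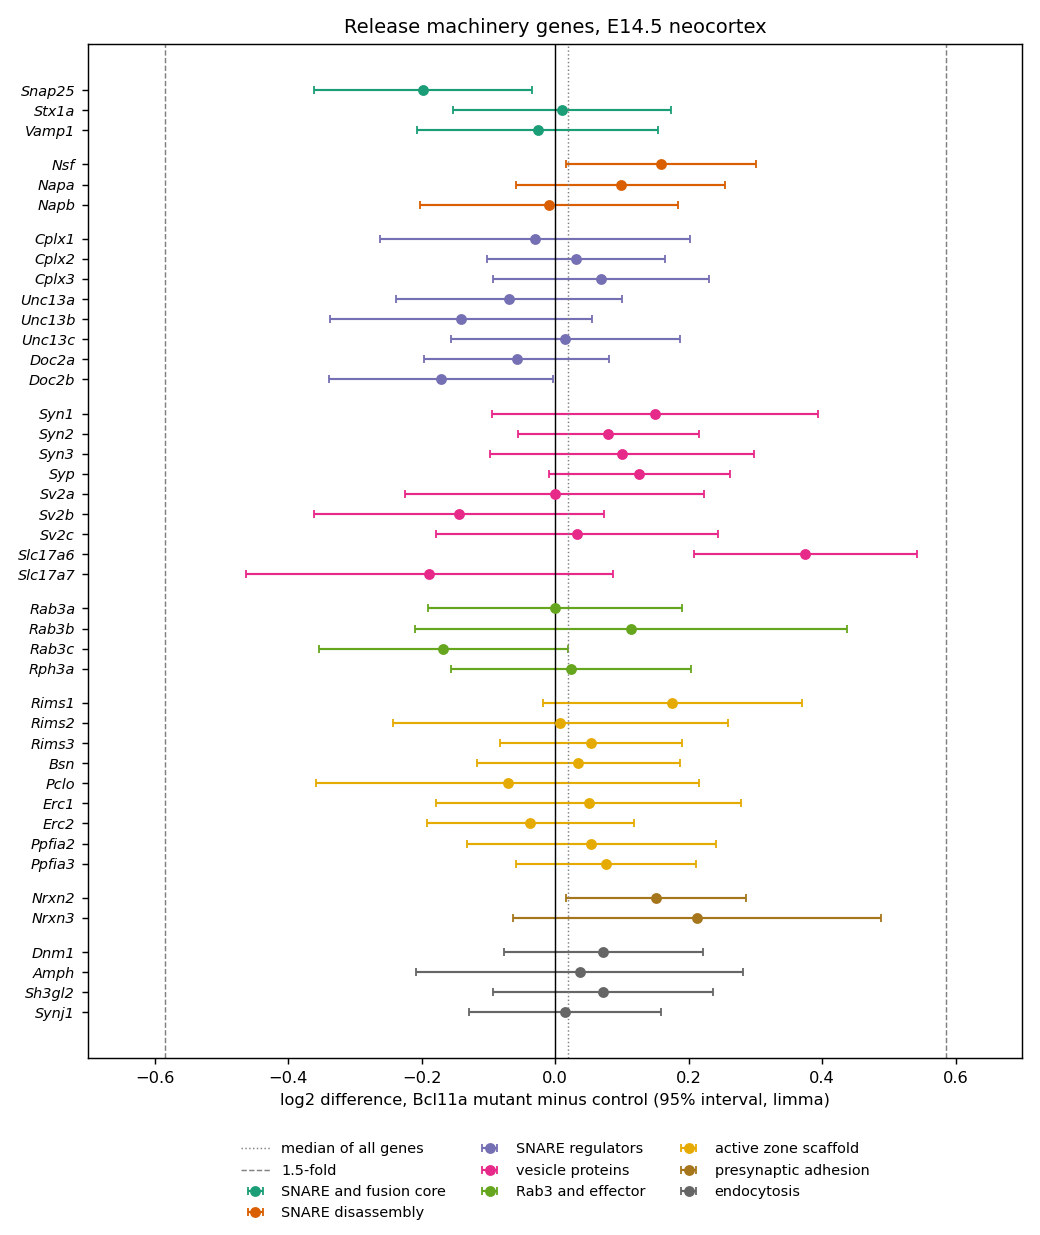
Log2 difference of each of the 42 release machinery genes, mutant minus control (n = 3 arrays each), with its 95% interval from limma, grouped by role. All intervals lie between the dashed lines at 1.5-fold, and Slc17a6, at 0.37, is farthest from 0.

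Transporters that load vesicles with glutamate held the largest difference. Slc17a6 encodes VGLUT2, the vesicular glutamate transporter of young cortical neurons and of thalamic axons, and Slc17a7 encodes VGLUT1, the transporter of the mature cortex. The stretches upstream of both genes are shown because these genes are the pair the largest difference belongs to. Each is 250 bases, 5′ to 3′, ending at the base before an annotated transcript start (RefSeq, GRCm38.p6, plus strand). They lie at chr7:51621580-51621829 for Slc17a6 and chr7:45163671-45163920 for Slc17a7. RefSeq gives Slc17a6 a second start further downstream, whose window at chr7:51624387-51624636 held none of the motifs searched and is not printed. Capitals mark TGGTCA in Slc17a6, which is the BCL11A motif TGACCA on the minus strand, and GGACAG in Slc17a7, a part of the site of the neuronal repressor REST.
Slc17a6: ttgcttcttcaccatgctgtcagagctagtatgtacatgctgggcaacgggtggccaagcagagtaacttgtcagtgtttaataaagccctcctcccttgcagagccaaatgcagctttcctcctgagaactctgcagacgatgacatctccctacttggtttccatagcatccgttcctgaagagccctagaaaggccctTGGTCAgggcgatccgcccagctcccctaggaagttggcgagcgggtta
Slc17a7: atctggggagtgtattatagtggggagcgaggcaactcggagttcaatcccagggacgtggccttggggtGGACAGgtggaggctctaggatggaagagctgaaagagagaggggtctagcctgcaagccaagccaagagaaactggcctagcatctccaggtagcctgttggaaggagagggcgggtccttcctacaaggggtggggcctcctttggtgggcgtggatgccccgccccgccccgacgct
Such windows were found for 36 of the measured members, and 6 of the 36, or 16.7%, held TGACCA on either strand, namely Amph, Dnm1, Slc17a6, Synj1, Unc13c and Vamp1. The share was 13.0% of all 27025 genes with a window. GGACAG was present for 16.7% of members and 21.0% of all genes. CAGCACC, another part of the REST site, was present for 5 of the 36 members, or 13.9%, and 6.56% of all genes. The median share of G and C bases was 60.8% in the members' windows and 52.4% in all windows. Its part in these motif shares was not tested. Each stretch printed held 1 match, so no matches could overlap there. A match is a run of letters and not a measured binding site.

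Slc17a6 read 10.95, 10.76 and 10.77 in mutants, against 10.51, 10.38 and 10.47 in controls. The groups did not overlap, and the difference was 0.37 (95% interval 0.21 to 0.54), or 1.30-fold. It did not pass over all genes (limma adjusted p = 0.126). With array weights it was 0.39 (limma adjusted p = 0.0202), and over the other alternatives the limma adjusted p was 0.0563 to 0.434. Without mutant replicate 1 the difference was 0.31. Slc17a7 read 10.20, 9.93 and 9.84 in mutants, against 10.40, 10.00 and 10.13 in controls. These groups overlapped, with a difference of -0.19 (95% interval -0.46 to 0.09). It was -0.08 without control replicate 1 and -0.29 without mutant replicate 1.

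Within an array, the log2 value of Slc17a6 minus that of Slc17a7 shows only whether the pair moved unequally. It was 0.75, 0.83 and 0.93 in mutants, against 0.11, 0.37 and 0.34 in controls. All 3 mutants lay above all 3 controls, with a mutant minus control difference of 0.56. An exact permutation test over the arrays, two-sided, gave p = 0.1, and 3 against 3 arrays cannot give less. This pair was chosen after its values were seen.

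Other vesicle proteins differed less. Synapsins tether vesicles to each other and to actin, and Syn1, Syn2 and Syn3 differed by 0.15, 0.08 and 0.10 with overlapping groups. Syp encodes synaptophysin, an abundant protein of the vesicle membrane. It read 10.43, 10.39 and 10.41 in mutants, against 10.21, 10.32 and 10.32 in controls. Its groups did not overlap and the difference was 0.13 (95% interval -0.01 to 0.26, limma adjusted p = 0.884). Syn1 and Syp lie on the X chromosome, and with embryo sex as a covariate they differed by 0.13 and 0.11. The SV2 glycoproteins act in vesicle priming and in the trafficking of synaptotagmin. Sv2a, Sv2b and Sv2c differed by -0.0006, -0.14 and 0.03, and their groups overlapped.

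**Figure D2:**
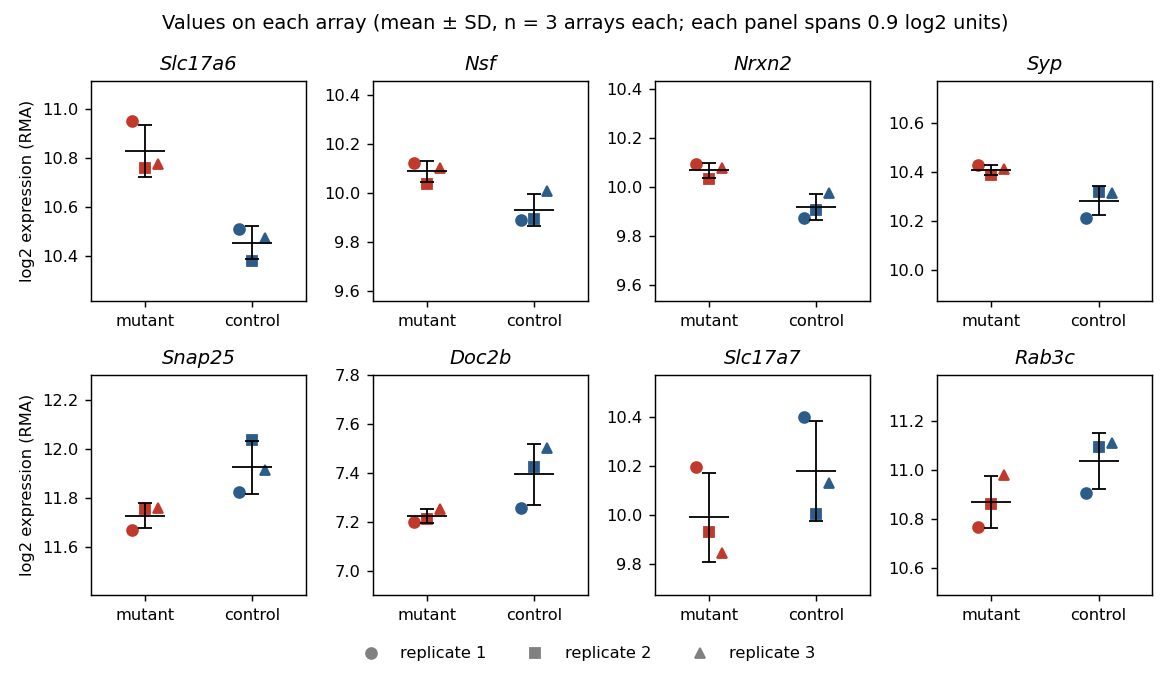
Log2 expression of 8 members on each array, mutants in red and controls in blue, with mean and SD (n = 3 arrays each). The groups do not overlap for Slc17a6, Nsf, Nrxn2, Syp, Snap25 and Doc2b, and they overlap for Slc17a7 and Rab3c.

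Among the fusion SNAREs, Snap25, a SNARE of the plasma membrane that also acts in axon growth, had the lowest p. It read 11.67, 11.75 and 11.76 in mutants, against 11.82, 12.04 and 11.91 in controls. Every mutant lay below every control, and the difference was -0.20 (95% interval -0.36 to -0.03, limma adjusted p = 0.626). Its plasma membrane partner Stx1a, a syntaxin, differed by 0.01 (95% interval -0.15 to 0.17). Vamp1, a synaptobrevin of the vesicle, differed by -0.03 (95% interval -0.21 to 0.15).

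Of the 3 genes that take SNARE complexes apart after fusion, 2 had positive differences and none passed. Nsf encodes the ATPase of this step. It read 10.13, 10.04 and 10.10 in mutants, against 9.89, 9.89 and 10.01 in controls. Its groups did not overlap, with a difference of 0.16 (95% interval 0.02 to 0.30, limma adjusted p = 0.706). Napa and Napb encode adaptors that bring the ATPase to the complex. Napb read 10.72, 10.80 and 10.80 in mutants, against 10.62, 10.95 and 10.77 in controls, so the mutants lay inside the range of the controls. The difference was -0.0092 for Napb and 0.10 for Napa.

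Of the 8 regulators of fusion, 3 had positive and 5 had negative differences, with a median of -0.04. Doc2b, a calcium sensor with C2 domains, read 7.20, 7.21 and 7.25 in mutants, against 7.26, 7.42 and 7.50 in controls. The groups did not overlap, but the highest mutant, at 7.25, and the lowest control, at 7.26, were close. The difference was -0.17 (95% interval -0.34 to -0.0032, limma adjusted p = 0.812). Its relative Doc2a differed by -0.06. Unc13 proteins prime docked vesicles. Unc13a read 10.12, 9.95 and 9.91 in mutants, against 10.05, 10.01 and 10.12 in controls, with overlap and a difference of -0.07. Unc13b differed by -0.14 and Unc13c by 0.02. Complexins bind the assembled SNARE complex, and Cplx1, Cplx2 and Cplx3 differed by -0.03, 0.03 and 0.07, all with overlapping groups. Cplx3, which marks subplate neurons later in development, read 6.03 to 6.26 over the 6 arrays. No detection call accompanies the values, so whether dim probe sets such as those of Cplx3, Sv2c and Unc13c lay above background is not known here.

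Rab3 proteins are small GTPases of the vesicle surface. Rab3c read 10.77, 10.86 and 10.98 in mutants, against 10.91, 11.09 and 11.11 in controls. The groups overlapped by mutant replicate 3 and control replicate 1, with a difference of -0.17 (95% interval -0.35 to 0.02). Rab3a, the main neuronal form, differed by -0.0006 (95% interval -0.19 to 0.19). Rab3b differed by 0.11 and had the widest spread of the members, with a pooled SD of 0.24. Rph3a, which encodes the Rab3 effector rabphilin, differed by 0.02.

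Of 9 scaffold genes of the active zone, 8 were within 0.1 of no difference, and the groups overlapped for all 9. Rims1, a RIM protein that links Rab3, Unc13 and calcium channels, was the exception in size. It read 8.06, 7.81 and 8.13 in mutants, against 7.83, 7.82 and 7.83 in controls. Mutants 1 and 3 lay above the controls and mutant 2 below them, with a difference of 0.18 (95% interval -0.02 to 0.37). Its relatives Rims2 and Rims3 differed by 0.01 and 0.05. Ppfia2 encodes a liprin-alpha, a scaffold that organises active zones. It read 10.00, 10.01 and 10.18 in mutants, against 9.88, 10.03 and 10.12 in controls, with overlap and a difference of 0.05. Ppfia3, another liprin-alpha gene, differed by 0.08. Bsn and Pclo encode bassoon and piccolo, the giant scaffolds, and differed by 0.03 and -0.07. Erc1 and Erc2, of the ELKS family that binds RIM proteins, differed by 0.05 and -0.04.

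Neurexins are presynaptic adhesion proteins that bind neuroligins and other partners across the cleft. Nrxn2 read 10.09, 10.03 and 10.08 in mutants, against 9.87, 9.90 and 9.97 in controls. The groups did not overlap and the difference was 0.15 (95% interval 0.02 to 0.29, limma adjusted p = 0.697). Nrxn3 differed by 0.21 (95% interval -0.06 to 0.49), and its groups overlapped. It was 0.09 without mutant replicate 3 and 0.31 without control replicate 3.

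All 4 genes of vesicle retrieval had small positive differences with overlapping groups. Dnm1 encodes the neuronal dynamin that cuts vesicles from the membrane. It read 9.89, 9.71 and 9.80 in mutants, against 9.70, 9.75 and 9.74 in controls, with a difference of 0.07. Sh3gl2, which encodes endophilin A1, read 10.88, 10.72 and 10.83 in mutants, against 10.63, 10.76 and 10.81 in controls, with a difference of 0.07. Amph, the gene of amphiphysin, and Synj1, that of the lipid phosphatase synaptojanin 1, differed by 0.04 and 0.01.

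A second list held 59 other presynaptic genes, among them relatives of the members, chaperones, synucleins and clathrin adaptors, of which 54 were measured. None passed over all genes, and 1, Stxbp5l, passed with array weights (limma adjusted p = 0.0426), where 217 of the 19938 genes passed. At an unadjusted limma p under 0.05, 5 were higher in mutants and 0 were lower, beside 4.53% and 1.52% of all genes. The groups did not overlap for 7, all higher in mutants, beside 7.69% of all genes that lay wholly higher. The median difference was 0.05, beside 0.02 for all genes, and 41 of 54, or 75.9%, were positive, beside 60.3% of all genes. Stxbp5l, a gene of the tomosyn family that inhibits SNARE assembly, read 6.86, 6.78 and 6.82 in mutants, against 6.56, 6.42 and 6.67 in controls. Its groups did not overlap, and the difference was 0.27 (95% interval 0.10 to 0.44). Cadps, which primes dense-core vesicles, differed by 0.34 (95% interval 0.11 to 0.58) with overlapping groups. Rab3il1, a Rab exchange factor, differed by 0.23, and Vamp4, a SNARE of endosomes and of the Golgi, by 0.21. Synpr, the synaptoporin gene, differed by 0.21 and Scamp1, a carrier membrane protein, by 0.18.

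**Figure D3:**
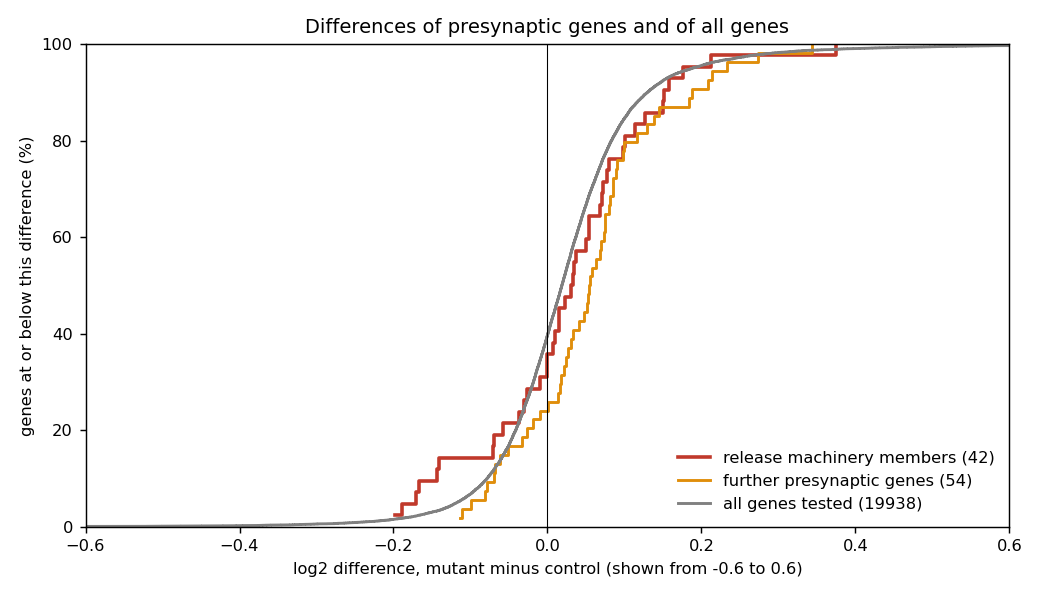
Share of genes at or below each log2 difference, mutant minus control, for the 42 release machinery genes, 54 further presynaptic genes and all 19938 genes tested. The members and all genes have medians of 0.03 and 0.02, and the further presynaptic genes have a median of 0.05. Within 0.1 of no difference lie 64.3% of the members and 77.8% of all genes.

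Averaged over the 42 members, the log2 value was 9.33, 9.27 and 9.35 in mutants, against 9.26, 9.29 and 9.33 in controls, so the groups overlapped. The arrays differed within the groups. Control replicate 1 had the lowest value of the 3 controls for 23 members, or 54.8%, beside 32.9% of all genes. Mutant replicate 3 had the highest value of the 3 mutants for 22 members, or 52.4%, beside 38.7% of all genes. Control replicate 3 had the highest value of the 3 controls for 20 members, or 47.6%, beside 34.8% of all genes. It had the lowest for 7 members, or 16.7%, beside 38.6% of all genes.

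In bulk tissue, fewer neurons and less RNA per neuron cannot be told apart. None of 20 pan-neuronal markers passed over all genes, and their mean was 11.28, 11.32 and 11.35 in mutants, against 11.24, 11.30 and 11.34 in controls. For 12 intermediate progenitor markers, the mean was 10.69, 10.65 and 10.66 in mutants, against 10.56, 10.49 and 10.55 in controls. These groups did not overlap, and 1 marker passed, Neurod4. The 16 radial glia markers averaged 10.88, 10.86 and 10.86 in mutants, against 10.85, 10.91 and 10.90 in controls, with none past the threshold.

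Markers of other cells that neocortex tissue could hold were read on the same arrays. For 12 erythroid markers, the mean was 8.28, 8.29 and 8.38 in mutants, against 7.36, 7.30 and 7.37 in controls, and 6 markers rose. For 16 pericyte and meningeal markers, the mean was 8.04, 7.22 and 7.19 in mutants, against 7.09, 7.09 and 6.999 in controls. Mutant replicate 1 was highest, and no marker of the list passed over all genes. In that list, Dcn read 10.49, 8.32 and 7.27 in mutants, and Foxc2 read 7.52, 5.80 and 5.98. Mutant replicate 1 did not stand apart for Rgs5, at 8.62, 8.54 and 8.62, or for Kcnj8, at 8.32, 8.15 and 8.38. The 12 microglia markers averaged 7.31, 7.17 and 7.27 in mutants, against 6.95, 7.09 and 7.10 in controls, and none of them passed. Of 8 thalamic markers none passed, and their mean was 8.26, 8.15 and 8.09 in mutants, against 8.02, 8.10 and 8.13 in controls. Mutants and controls did not overlap for the erythroid, pericyte and meningeal, and microglia means, as for the intermediate progenitor mean and Slc17a6, and they overlapped for the thalamic mean. The part of these cells in the differences of Slc17a6 and the other members was not tested.

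**Figure D4:**
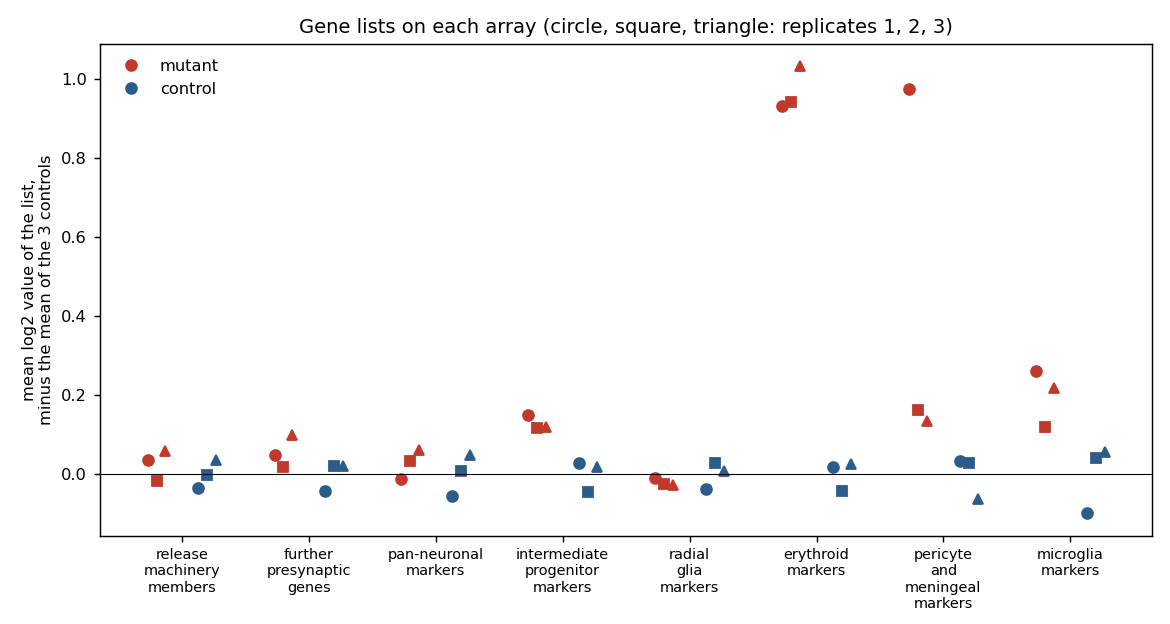
Mean log2 value of each gene list on each array, minus the mean of the 3 controls, with mutants in red left of controls in blue. Release machinery genes of both groups overlap near 0, erythroid markers are higher in all 3 mutants, and mutant replicate 1 stands out for pericyte and meningeal markers.

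Of the members, 3 had more than 1 probe set of their own. The 3 probe sets of Unc13a differed by -0.07, -0.08 and 0.05, the 3 of Erc1 by 0.05, -0.0086 and 0.10, and the 7 of Unc13c by -0.11 to 0.04.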

How the data were processed

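Per the submitters' processing notes, the authors made the deposited values with Affymetrix Expression Console and RMA; the sources used here give no versions or genome build. The scale of the deposited values is not stated and was taken as log2, since RMA gives log2 values and these lay between 3.41 and 13.75; every fold rests on this. RMA compresses differences of dim genes and hides a shift of most genes in 1 direction. Of 35556 probe sets, 21789 had 1 gene symbol in GEO's platform annotation, and the others were left out. Of those kept, 21698 matched RefSeq (GRCm38.p6) by Entrez number, and the rest kept their symbol of the annotation. The comparison of mutants with controls used limma 3.58.1 (R 4.3.3, lmFit and eBayes, no covariate), two-sided, with Benjamini-Hochberg adjustment over 19938 genes. Intervals are limma's 95% intervals, not adjusted for the number of genes. The procedure was tested on simulated data with differences larger than that of any member. That test does not cover differences as small as those of the members. For arrays, the number of arrays limits the precision.

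The members, lists and alternatives were chosen with earlier results of these data known. All members were named. Values on each array were given for members with an unadjusted p under 0.05 and, in each role group, those with the highest mean or lowest p; Syp, Slc17a7 and the pair of transporters were chosen after their values were seen. Of the further presynaptic genes, the 6 with the smallest p were named. Of 12 marker lists, subplate, projection neuron, Cajal-Retzius, GABAergic interneuron and endothelial lists had no member past the threshold, with medians of -0.03, -0.0046, -0.05, 0.06 and 0.12. Such medians can hide moves both ways. Of 10 Cajal-Retzius markers, 3 were higher and 4 lower at an unadjusted limma p under 0.05. Of 15 GABAergic interneuron markers, 2 were higher and 3 lower, beside 4.53% and 1.52% of all genes. The median size without sign was 0.31 and 0.11 for these lists, beside 0.05 for all genes.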

Additional observations from a re-analysis of the deposited data

How the results depend on the processing

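No member passed in 15 of 16 alternatives, and with array weights 1 member and 1 further presynaptic gene passed. Members at an unadjusted limma p under 0.05 numbered 5 as reported, beside 6.05% of all genes. They numbered 9 with array weights, beside 10.5% of all genes, and 2 with a sex covariate, beside 4.05%. When 1 array was left out they numbered 2 to 5, beside 4.68% to 7.78% of all genes. There were 2 without mutant replicate 1 and 3 without control replicate 2 or mutant replicate 3. With the replicate block, 9 members had an unadjusted limma p under 0.05, beside 7.3% of all genes. At the adjusted threshold, that setting gave 34 genes in all and none of the members. Over all genes, deviations of arrays with the same number correlated at 0.03, -0.14 and 0.08, which gives no sign of pairing over all genes. Among the members, replicate 3 was most often highest in both groups, for 52.4% in mutants and 47.6% in controls. The array most often lowest was replicate 2 in mutants, at 45.2%, and replicate 1 in controls, at 54.8%. Pairing was not tested for the members alone. Genes past the threshold, 57 as reported, numbered 217 with array weights, 24 with a sex covariate, 107 at an adjusted p under 0.1, and 20 to 50 with 1 array left out. The list median was -0.0001 without mutant replicate 3 and up to 0.06 without the others.

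At 2 decimals, the direction turned in 46 of 664 member results, all for 18 members that were not called, and the cause was not tested. A difference of 0.00 was given no direction, so Sv2a and Rab3a could not count as turned. When 1 array was left out, Sv2a ranged from -0.09 to 0.09 and Rab3a from -0.06 to 0.06. With quantile normalization Stx1a was at -0.02, Unc13c at -0.02, Rims2 at -0.03 and Synj1 at -0.01. With median centring Stx1a was at -0.03, Cplx2 at -0.01, Unc13c at -0.02, Sv2c at -0.01, Rph3a at -0.02, Rims2 at -0.03 and Synj1 at -0.02. The lowest probe set put Unc13a at 0.05, and the mean of probe sets put Unc13c at -0.03. With array weights Stx1a was at -0.04, Unc13c at -0.03, Sv2c at -0.02, Rab3b at -0.05 and Amph at -0.04. With a sex covariate Stx1a was at -0.01 and Unc13c at -0.01. When 1 array was left out, Amph ranged from -0.08 to 0.11, Bsn from -0.01 to 0.07, Cplx1 from -0.13 to 0.08, Erc1 from -0.05 to 0.13, Erc2 from -0.07 to 0.01, Napb from -0.09 to 0.07, Pclo from -0.17 to 0.04 and Ppfia2 from -0.01 to 0.11. Likewise Rab3b ranged from -0.02 to 0.27, Rims2 from -0.13 to 0.08, Rph3a from -0.03 to 0.09, Stx1a from -0.05 to 0.06, Sv2c from -0.07 to 0.09, Synj1 from -0.01 to 0.06, Unc13c from -0.05 to 0.07 and Vamp1 from -0.09 to 0.04. With no change of direction, Slc17a7 ranged from -0.29 to -0.08, Nrxn3 from 0.09 to 0.31, Sv2b from -0.23 to -0.05, Unc13b from -0.23 to -0.06, Syn1 from 0.05 to 0.24 and Rims1 from 0.11 to 0.27. Slc17a6 lay between 0.31 and 0.41, Snap25 between -0.25 and -0.14, Nsf between 0.12 and 0.20 and Nrxn2 between 0.11 and 0.18 in all alternatives.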
